A study of Mus musculus with 18 samples.

Results

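The targets of miR-221-3p (mmu-miR-221-3p in the lists) and miR-222-3p (mmu-miR-222-3p) were read from CLEAR-CLIP chimeras of cultured mouse keratinocytes. In this assay Argonaute 2 is precipitated after UV crosslinking and the bound miRNA is ligated to the RNA it lies on, so that 1 chimeric read names both the miRNA and its target. The 2 miRNAs were found by their names in the miRNA column of the deposited lists. They held 5836 of 1153545 chimeric reads, and were 2 of 1797 miRNA names.

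The 18 libraries fell into 5 groups in 2 sets, and each group's libraries are pooled in 1 list. Set 1 held a control of K14-Cre only keratinocytes (6 libraries) and miR-200 double knockout (DKO) keratinocytes (3 libraries). Set 2 held miR-200 inducible keratinocytes that were not induced (3 libraries, called uninduced), DKO keratinocytes (3 libraries) and the same inducible line after 24 hours in 3 ug/ml doxycycline (3 libraries, called induced). Cells of all groups were crosslinked at 254 nm with 300 mJ/cm2, and each library came from a dish of its own. The keratin 14 promoter of the K14-Cre control is that of a gene of basal keratinocytes. The labels do not give the knockout alleles, the promoter of the inducible construct or the number of clones, and the set 2 control is the uninduced line in place of a K14-Cre line. Doxycycline-treated cells without the construct are not among the labelled groups, so drug and induction cannot be told apart. Since each group is 1 pooled sample, no test between groups was made. All ranges in parentheses are exact 95% intervals that cover counting error alone.

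miR-221 and miR-222 are made from neighbouring hairpins on the X chromosome and are known for being abundant in dividing cells. A miRNA finds its targets chiefly by its seed, bases 2 to 8, which pairs with the target RNA. The pair is best known for repressing the cell cycle inhibitor Cdkn1b, the receptor Kit, and genes of apoptosis such as Bcl2l11.

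The mature sequences are shown because both share a seed and differ after it, which bears on which of the pair was found at each target. The seed is in capitals, the sequences are from RefSeq (GRCm38.p6), and each is written 5′ to 3′:
miR-221-3p: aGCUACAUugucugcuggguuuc
miR-222-3p: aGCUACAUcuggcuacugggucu
miR-1928: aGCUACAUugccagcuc

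miR-221-3p lies at chrX:19146307-19146329 and miR-222-3p at chrX:19146901-19146923, both on the minus strand, in hairpins 504 bases apart. The first 8 bases of the pair are identical, and of the 15 that follow only 3 match position by position. The longest run they share further on is CUGGGU, which starts at base 15 of miR-221-3p and at base 16 of miR-222-3p. Among 1679 mature RefSeq names, 3 carry this seed. The third, miR-1928, had 0 reads, so among names matched to RefSeq the chimeras of this seed were those of the pair. Of the 1797 names in the lists 1512 were matched, and the seeds of the rest were not checked.

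The pools held 48662 to 419117 chimeric reads, and a floor of 3 reads corresponds to 0.000716% to 0.00616% of a pool. By the read names, set 1 and set 2 were sequenced on different flow cells, each in 1 lane, so set and run cannot be told apart. Other miRNAs had 2831 chimeras on 8 markers of basal keratinocytes, from 1 on Krt15 and 68 on Lamb3 to 590 on Itga6. They had 96 on 8 markers of differentiated keratinocytes, 60 on 8 of melanocytes, 36 on 8 of endothelium, 22 on 8 of fibroblasts and 4 on 8 of immune cells, led by Mitf (48), Pdgfra (21) and Kdr (20) outside the keratinocyte lists. The pair had 16 on the basal markers, of which 11 were on Krt5, 3 on the differentiated, 1 on the melanocyte and 0 on the other markers. Target genes and sites were counted as distinct chimeras, meaning each combination of position, strand and miRNA once per pool; the pair had 5319.

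miR-221-3p and miR-222-3p were moderately abundant in all 5 pools, and miR-222-3p was the more frequent of the pair in each. miR-221-3p held 0.254% of reads (0.230 to 0.279; 410 reads) in the set 1 control and 0.218% (0.178 to 0.263; 106 reads) in the set 1 DKO pool. In set 2 it held 0.212% (0.196 to 0.228; 665 reads) in the uninduced pool, 0.310% (0.287 to 0.335; 652 reads) in the DKO pool and 0.201% (0.188 to 0.215; 843 reads) in the induced pool. By all reads it was thus highest in the set 2 DKO pool, and the intervals of the other set 2 pools lay below it. Its place above the set 1 control depended on the total. Without 9 miRNAs more frequent in set 1, the set 1 control held 0.406% (0.368 to 0.447) and the set 2 DKO pool 0.324% (0.300 to 0.350). With each distinct chimera counted once they held 0.328% (0.296 to 0.362) and 0.324% (0.298 to 0.351). miR-222-3p held 0.357% (0.328 to 0.387; 577 reads) in the set 1 control and 0.327% (0.278 to 0.382; 159 reads) in the set 1 DKO pool. In set 2 its shares were 0.232% (0.216 to 0.250; 730 reads) uninduced, 0.328% (0.304 to 0.353; 689 reads) in the DKO pool and 0.240% (0.225 to 0.255; 1005 reads) induced. The set 1 control and both DKO pools had overlapping intervals, above those of the uninduced and induced pools, which overlapped each other. Without 1 site in Ece1 that is found in the set 1 control alone, that pool's share was 0.321%, inside the intervals of both DKO pools. By reads, miR-222-3p ranked between place 46 and place 73 among the miRNAs of a pool and miR-221-3p between 54 and 80.

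**Figure D1:**
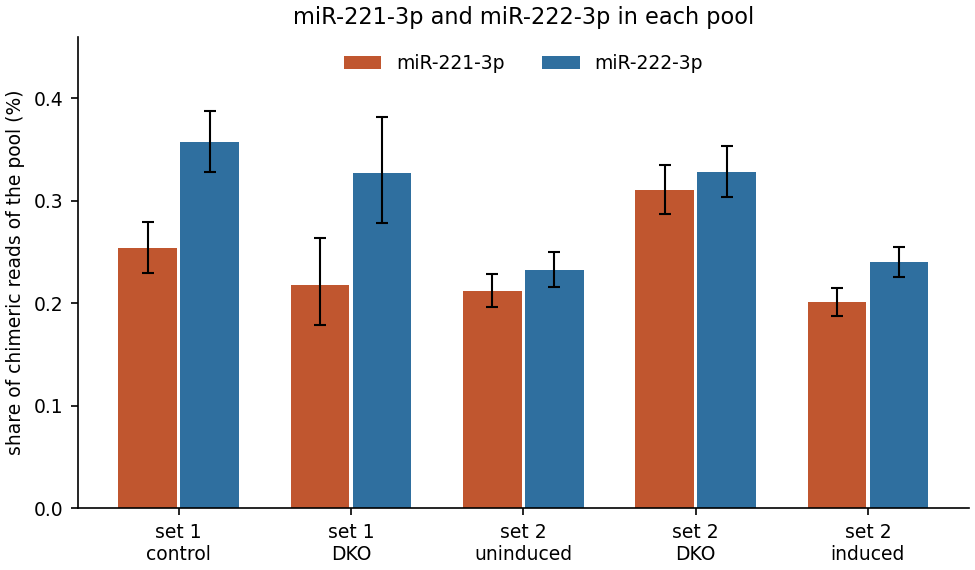
Share of all chimeric reads of a pool (percent, vertical axis) held by miR-221-3p and miR-222-3p in each of the 5 pools; bars are the share of 1 pool and error bars its exact 95% interval, which covers counting error alone. miR-222-3p stands above miR-221-3p in each pool, by more than the intervals in both set 1 pools and the induced pool, and the set 2 DKO bars stand above the other bars of set 2.

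The balance within the pair leaned to miR-222-3p most in set 1. There miR-222-3p made up 58.5% of the pair's reads in the control (55.3 to 61.6) and 60.0% in the DKO pool (53.8 to 65.9). In set 2 it made up 52.3% (49.7 to 55.0), 51.4% (48.7 to 54.1) and 54.4% (52.1 to 56.7) in the uninduced, DKO and induced pools. The set 1 DKO interval overlapped all of these. By distinct chimeras the set 1 control stood at 55.4% (52.1 to 58.8), near the induced pool at 54.3% (51.9 to 56.7), and without the Ece1 site its reads of miR-222-3p were 1.27 times those of miR-221-3p in place of 1.41. The passenger arms were rare. miR-221-5p had 3 to 6 reads a pool and miR-222-5p 1 to 13 reads, so that both 5p arms together held 0.0111% and 0.0185% of set 1 control and DKO reads, and 0.00167% to 0.00287% of the set 2 pools.

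The DKO comparison asks what loss of the miR-200 family does to the binding of other miRNAs. In set 1 the pair held 0.610% of control reads (0.573 to 0.650) and 0.545% of DKO reads (0.481 to 0.614), a ratio of 0.892 (0.776 to 1.02). In set 2 it held 0.444% of uninduced reads (0.421 to 0.468) and 0.639% of DKO reads (0.605 to 0.674), a ratio of 1.44 (1.33 to 1.55). Both members had like ratios within a set, with miR-221-3p at 0.859 (0.687 to 1.07) and miR-222-3p at 0.916 (0.763 to 1.09) in set 1, and at 1.47 (1.31 to 1.64) and 1.41 (1.27 to 1.57) in set 2. The share in the DKO pool was thus higher than control in set 2, and the set 1 intervals included 1. Neither ratio passed 1.5-fold, the size counted as called here, while 50.2% of 253 miRNAs in set 1 (17.8% higher, 32.4% lower) and 42.7% of 260 in set 2 (21.5% higher, 21.2% lower) did so. The median ratio over those miRNAs was 0.949 in set 1 and 1.01 in set 2, where 58 miRNAs lay above miR-221-3p and 63 above miR-222-3p. With the miR-200 family, which the DKO cells lack, left out of the totals, the set 2 ratio of the pair was 1.35 (1.25 to 1.45) and the set 1 ratio 0.865 (0.752 to 0.992). The set 1 ratio was 0.771 (0.671 to 0.884) without 9 miRNAs that are more frequent in set 1 than in set 2, and 0.861 (0.748 to 0.989) without marked read names, so that its interval lay below 1 in these 3 settings. With each distinct chimera counted once miR-221-3p stood at 0.766 (0.605 to 0.961) in set 1. Without the Ece1 site miR-222-3p stood at 1.02 (0.847 to 1.22) there. That alternative took out a site of the control alone and kept sites seen mainly in the DKO pool.

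The pair's share differed by little between the induced and the uninduced pool. The induced pool held 0.441% of reads (0.421 to 0.461), a ratio to uninduced of 0.993 (0.926 to 1.06). miR-221-3p was at 0.950 (0.857 to 1.05) and miR-222-3p at 1.03 (0.937 to 1.14), neither past 1.5-fold, while 7.5% of 280 miRNAs were (4.29% higher, 3.21% lower). Set against the DKO pool, the induced pool held 0.690 times the pair's share (0.643 to 0.741), with miR-222-3p at 0.731 (0.663 to 0.806) and miR-221-3p at 0.648 (0.584 to 0.719). Here miR-221-3p passed 1.5-fold lower, as did 21.9% of 274 miRNAs, while 18.6% passed it higher and 40.5% either way. Without the miR-200 family in the totals its ratio was 0.710, and with each distinct chimera counted once 0.704, both short of 1.5-fold. This comparison shares the DKO pool with the DKO over uninduced comparison and the induced pool with the induction comparison, so the 3 are not independent.

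**Figure D2:**
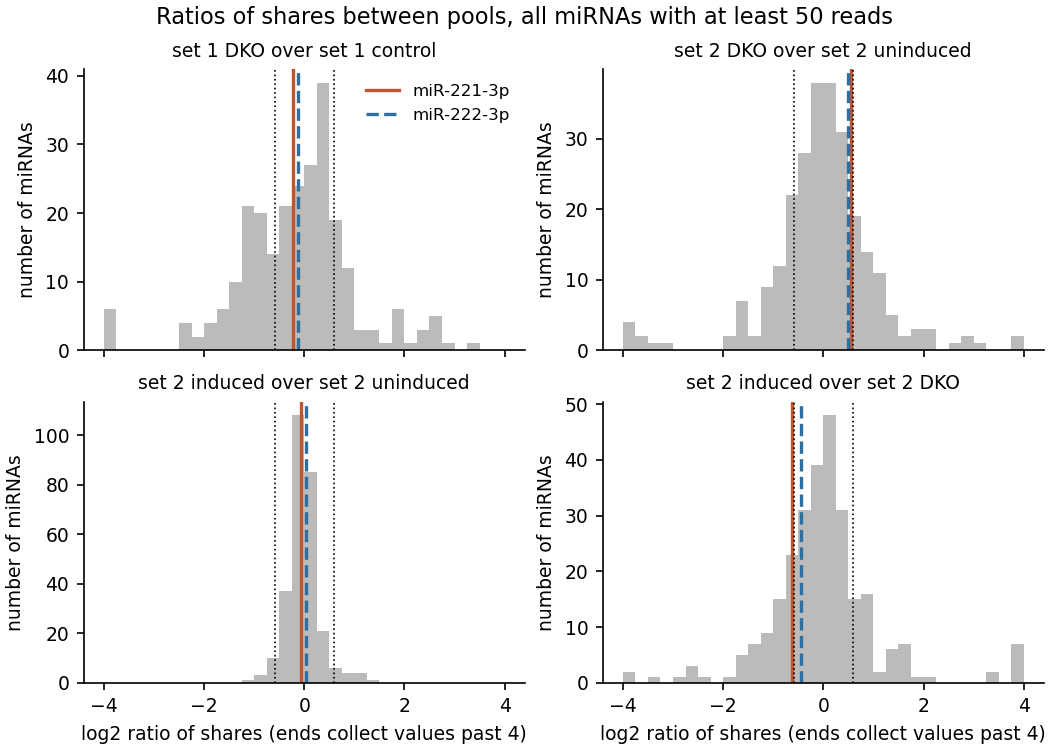
Number of miRNAs (vertical axis) by the log2 ratio of their shares between 2 pools (horizontal axis), for the 4 comparisons within sets and all miRNAs with at least 50 reads over both pools; lines mark miR-221-3p and miR-222-3p, and dotted lines 1.5-fold. The pair lies close together in each panel, near the middle for set 1 DKO and for induction, and toward the upper side for set 2 DKO.

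The pair's chimeras lay mostly within protein-coding genes, on the coding strand. Protein-coding genes took 80.3% to 86.4% of them by pool, against 82.8% to 85.4% for all other miRNAs. Where the strand of the gene was known, 96.6% to 98.4% lay on it, against 96.4% to 98.5% for all other miRNAs. In genes longer than 10000 bases, the share within 3000 bases of the end of the gene, where 3′ untranslated sequence lies, was 30.0% in the set 1 control (26.0 to 34.2) against 14.5% for other miRNAs, and 42.1% in the set 1 DKO pool (33.9 to 50.8) against 21.1%. In set 2 it was 26.6% (23.3 to 30.0) uninduced against 24.6%, 26.5% (23.1 to 30.1) DKO against 21.3%, and 28.5% (25.7 to 31.4) induced against 24.7%. The pair was thus nearer to gene ends than other miRNAs in each pool. The other miRNAs' share was inside the pair's interval in the uninduced pool. In the set 1 control the pair's interval held its set 2 shares, while other miRNAs (14.5%) lay below their 21.3% to 24.7% in set 2. In the set 1 DKO pool the pair's own share was the highest (42.1%). These shares were not recounted without the miRNAs more frequent in set 1. Whether the make-up of the other miRNAs gave the set 1 gaps was not tested. Exons were not annotated in the table used here, so coding and untranslated parts were not separated.

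The targets were spread over many genes with few chimeras each. Over all pools 2234 genes had at least 1 chimera of the pair, 876 at least 2 and 146 at least 5. By pool, 108, 42, 162, 155 and 235 genes had at least 2 (set 1 control and DKO, then set 2 uninduced, DKO and induced), and the 10 leading genes held 13.2%, 21.5%, 12.7%, 11.3% and 9.85% of the pair's chimeras. With at least 2 chimeras a member, miR-221-3p had 392 genes and miR-222-3p 444, and 110 were in both, which is 28.1% of the former and 24.8% of the latter. At this depth a gene can miss the cut by its low count, and the same overlap was not counted for other miRNAs. The overlap thus does not measure how far the members' targets are shared.

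Dusp1, a phosphatase that switches off MAP kinases, was the leading target gene, with 137 chimeras or 2.58% of all. Its chimeras numbered 28 in the set 1 control, 12 in the set 1 DKO pool, 37 in the uninduced, 31 in the DKO and 29 in the induced pool of set 2. These were 3.24% (2.16 to 4.65), 4.96% (2.59 to 8.50), 2.89% (2.04 to 3.97), 2.57% (1.75 to 3.62) and 1.68% (1.13 to 2.40) of the pair's chimeras, against 0.0283% to 0.0578% among other miRNAs. Dusp1 was thus seen in each pool, and its share among the pair's targets over all pools was 52.9 times that among other miRNAs' targets (43.4 to 64.2). Arl4c, a small GTPase, had fewer chimeras (24) and a similar excess of 58.7 times (35.4 to 94.3). It had 1 chimera in the set 1 control, 0 in the set 1 DKO pool and 9, 8 and 6 in set 2. The genes named here and below were chosen by the pair's own chimeras. Their excess over other miRNAs is thus biased upward and describes these genes only.

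Scd2, a desaturase that makes monounsaturated fatty acids, followed with 81 chimeras (19, 2, 11, 27 and 22 by pool, in the order given for Dusp1), 8.95 times its share among other miRNAs (7.07 to 11.2). Dsp, the desmosome protein desmoplakin, had 41 (9, 8, 10, 6 and 8; 12.6 times, 8.96 to 17.3). Tnks2, the poly-ADP-ribosylating enzyme tankyrase 2, had 39 (12, 2, 12, 6 and 7; 12.2 times, 8.57 to 16.9). Chd2, a chromatin remodeller, had 25 (1, 0, 5, 0 and 19; 9.98 times, 6.39 to 14.9). Scd2, Dsp and Tnks2 were present in each pool, while most Chd2 chimeras came from the induced pool. Ppp1r15b, a subunit of the phosphatase that reverses eIF2alpha phosphorylation, had 18 (8.66 times, 5.07 to 13.9).

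Some leading genes were as frequent among the targets of other miRNAs. The ribosomal RNA gene Rn18s-rs5 had 95 chimeras of the pair (1.13 times its share among other miRNAs, 0.910 to 1.38), and the nuclear noncoding RNAs Neat1 and Malat1 had 82 (1.19, 0.946 to 1.48) and 25 (1.19, 0.770 to 1.76). The scaffold genes Grip1 (19 chimeras; 1.28, 0.767 to 2.00) and Ahnak (18; 0.858, 0.508 to 1.36) were like them. The cell surface genes Thbd (19; 3.32, 1.99 to 5.21) and Nectin1 (13; 3.38, 1.79 to 5.81) lay between. Ribosomal RNA is encoded in many near-identical copies, so the position of its chimeras is uncertain.

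**Figure D3:**
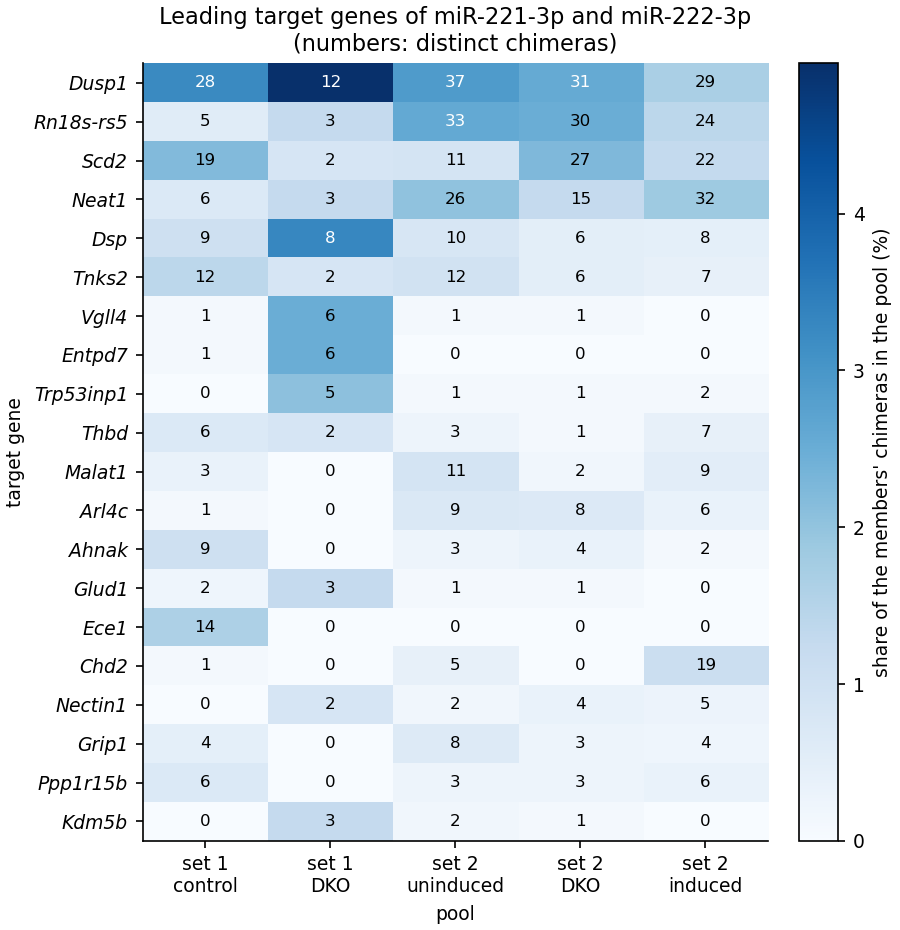
Distinct chimeras of miR-221-3p and miR-222-3p (numbers) in the 20 target genes that led by their mean share, by pool; colour gives the share of the pair's chimeras in that pool (percent). Dusp1 is dark in each column, whereas Ece1 stands in the set 1 control alone and Vgll4, Entpd7 and Trp53inp1 stand mainly in the set 1 DKO pool, which has the fewest chimeras.

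Few target genes had the 20 chimeras needed to compare pools. In set 1 both of 2 such genes differed at least 1.5-fold between DKO and control, which is 100% of those compared, yet both intervals included 1: Dusp1 stood at 1.53 (0.709 to 3.11) and Scd2 at 0.376 (0.0424 to 1.56). In set 2 DKO over uninduced, 50% of 4 genes passed 1.5-fold. Scd2 was higher in the DKO pool, at 2.60 times (1.25 to 5.81; 27 against 11 chimeras). Neat1 was at 0.611 (0.301 to 1.20), Rn18s-rs5 at 0.963 and Dusp1 at 0.887, with intervals that included 1.

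In the induced over the uninduced pool 66.7% of 6 genes passed 1.5-fold. Chd2 was higher at 2.82 times (1.02 to 9.65; 19 against 5 chimeras). Dusp1 was lower at 0.581 (0.345 to 0.970) and Rn18s-rs5 at 0.539 (0.305 to 0.940), and Malat1 at 0.606 had an interval that included 1 (0.222 to 1.61). In the induced over the DKO pool 75% of 4 genes passed, namely Dusp1 at 0.655 (0.381 to 1.12), Scd2 at 0.570 (0.310 to 1.04) and Rn18s-rs5 at 0.560 (0.313 to 0.991). Chd2 had 0 of 1208 chimeras in the set 2 DKO pool, which allows up to 0.305%, and 1.10% (0.664 to 1.71) in the induced pool. With 1 pool a group, these gene ratios have no replicate check.

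Overlapping target parts on 1 strand formed 3756 sites, of which 3149 held 1 chimera. At 75 sites, called stacked, at least 5 chimeras lay on each other, and these sites held 945 of the 5319 chimeras (17.8%). Of the stacked sites 8 were seen in all 5 pools, 30 in 4, 22 in 3, 13 in 2 and 2 in 1, and 51 in both sets. Of the 55 stacked sites in 1 named protein-coding gene, 36 lay within 3000 bases of the end of the gene.

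The deepest site was in Dusp1 at chr17:26505705-26505800, minus strand, 161 bases before the gene's end, with 134 chimeras in 235 reads. They numbered 28, 12, 36, 29 and 29 by pool. Other miRNAs gave another 134 chimeras there, led by miR-101b-3p (23) and let-7a-5p (22), so that the pair held 50.0% of all chimeras at the site against 0.565% over all sites. The Scd2 site, chr19:44306290-44306465 on the plus strand, held 77 chimeras of the pair and 636 of other miRNAs, led by miR-27a-3p (274). The Dsp site, chr13:38197960-38198105 on the plus strand, held 38 of the pair and 59 of others, led by miR-29a-3p (17). Thus the pair was frequent at Dusp1 and Dsp, and a minor part (10.8%) at Scd2.

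The Tnks2 site, chr19:36890898-36890973 on the plus strand, held 38 chimeras (12, 2, 12, 6 and 6 by pool), 29.5% of all there. The Arl4c site, chr1:88698743-88698811 on the minus strand, held 23 (60.5%), and the Chd2 site, chr7:73427477-73427557 on the minus strand, held 23 (59.0%), of which 17 were from the induced pool. At the Ppp1r15b site, chr1:133139256-133139324 on the plus strand, 15 of the pair stood against 1 of any other miRNA (93.8%).

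**Figure D4:**
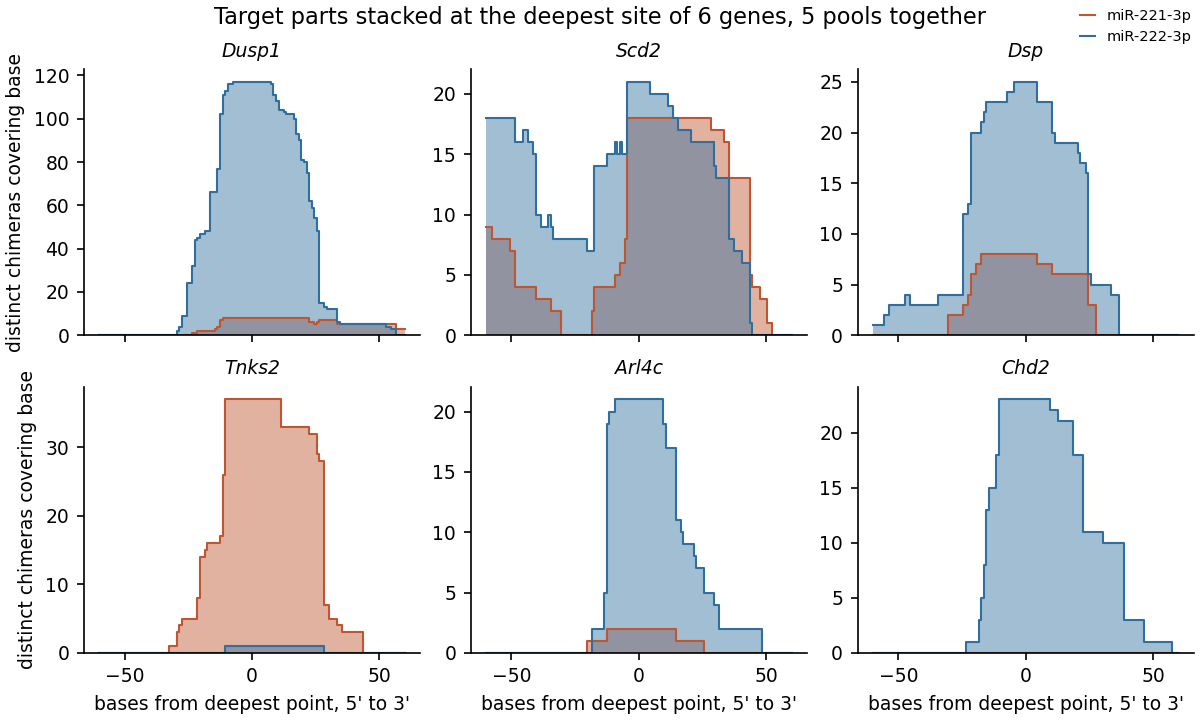
Number of distinct chimeras whose target part covers each base (vertical axis) around the deepest point of the stacked site of 6 genes, by distance in bases along the target strand (horizontal axis), 5 pools together, for miR-221-3p and miR-222-3p. Scd2 has a further peak upstream. The other sites have 1 main stack each, with a few more chimeras downstream at Dusp1 (miR-221-3p) and upstream at Dsp (miR-222-3p). At Dusp1, Arl4c and Chd2 miR-222-3p covers the site with few or 0 chimeras of miR-221-3p. At Tnks2 the reverse holds, and at Scd2 and Dsp both cover it.

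Although the pair shares a seed, many sites carried mostly 1 of the 2. Over all chimeras miR-222-3p made up 53.3% of the pair. Of the 25 sites with at least 10 chimeras, 12 (48%) had at least 90% from 1 member. The interval of the miR-222-3p part lay above 53.3% at 10 sites and below it at 5. The 12 and the 10 both include the hairpin of miR-222 itself (11 chimeras, described below) and Ece1 (14, in the set 1 control alone). At the Dusp1 site miR-222-3p gave 121 of 134 chimeras (90.3%, 84.0 to 94.7), and by pool 25 of 28, 12 of 12, 33 of 36, 25 of 29 and 26 of 29. At Tnks2 miR-221-3p gave 37 of 38 chimeras, leaving 2.63% (0.0666 to 13.8) to miR-222-3p, and by pool 12 of 12, 2 of 2, 11 of 12, 6 of 6 and 6 of 6. The imbalance had the same direction in each of the 5 pools at both sites.

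miR-222-3p gave all 23 chimeras at Chd2 (85.2 to 100%), 21 of 23 at Arl4c (91.3%, 72.0 to 98.9) and 30 of 38 at Dsp (78.9%, 62.7 to 90.4). At Scd2 it gave 49 of 77 (63.6%, 51.9 to 74.3) and at Ppp1r15b 8 of 15 (53.3%, 26.6 to 78.7), intervals that include the overall balance. miR-221-3p led at Bcl2l11, which encodes the proapoptotic protein Bim, with 9 of 11. Over the 75 stacked sites, miR-222-3p alone was found at 15, miR-221-3p alone at 16 and both at 44. Stacked sites were chosen by the pair's own chimeras, so these counts describe them only.

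**Figure D5:**
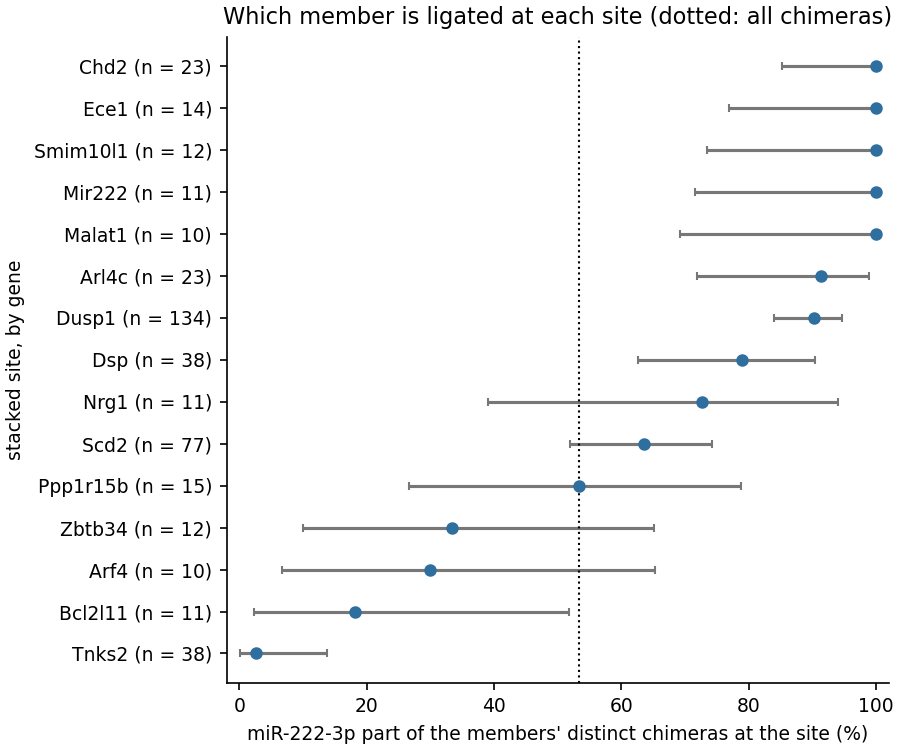
Part of the pair's distinct chimeras that is miR-222-3p (percent, horizontal axis) at the stacked sites with at least 10 chimeras that are named here, other than ribosomal RNA and the Angptl2 site, with n the number of chimeras, 5 pools together; bars are exact 95% intervals and the dotted line is the part over all chimeras (53.3%). The intervals of Tnks2 and Bcl2l11 lie below the line, and those of Dsp, Dusp1, Arl4c and 5 sites at 100% lie above it.

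miR-222-3p was also ligated to RNA of its own hairpin, and whether this part is a target was not tested. It was ligated to the 5p side of its hairpin at chrX:19146941-19146969, minus strand, hairpin bases 3 to 31, while the mature miRNA is hairpin bases 49 to 71. The part is shown with the longest run complementary to miR-222-3p in capitals (10 bases, against bases 9 to 18 of the miRNA):
miR-222 hairpin part: cucaguggcuCAGUAGCCAGuguagaucc

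There were 15 such reads (11 distinct chimeras), with 5, 4 and 6 reads in the uninduced, DKO and induced pools of set 2 and 0 in set 1. Each carried miR-222-3p, other miRNAs had 0 chimeras there, and the miR-221 hairpin had 0 reads of either member. This part is among the stacked sites counted above as miR-222-3p alone.

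Targets often cited for the pair were found at uneven depth. Of the 32 genes of this list, 15 had at least 1 chimera and 2 had at least 5; over 17512 genes with a chimera of any miRNA, 12.8% had at least 1 of the pair and 0.834% at least 5, and the median was 0 in both. Ddit4, an inhibitor of mTORC1 signalling, had 17 chimeras (1, 0, 6, 4 and 6 by pool; 15 of them miR-222-3p). Bcl2l11 had 11 (1, 0, 5, 1 and 4), at chr2:128162322-128162418 on the plus strand, 177 bases before the gene's end, where other miRNAs had 9. Both were found in 4 of 5 pools, with 0 in the small set 1 DKO pool. Their shares among the pair's targets were 9.10 times (5.24 to 14.8) and 16.3 times (7.91 to 30.2) those among other miRNAs.

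Cdkn1b had 4 chimeras of the pair, against 259 of other miRNAs, and Pik3r1, a regulatory subunit of PI3K, had 4, all in the set 2 DKO pool. The transcription factor Foxo3 had 3 against 773 of other miRNAs, Ets1 and Dicer1 had 2 each, and Bmf, Bbc3, Mdm2, Trps1, Arnt, Ppp2r2a and Irf2 had 1 each. Kit and Cdkn1c had 0 of the pair and 2 and 1 of other miRNAs, a depth at which binding could not be seen. Other cited genes at 0 were deeper, such as Apaf1, Icam1, Dnmt3b and Bnip3l, with 218, 32, 29 and 20 of other miRNAs. The pair held 0.565% of all chimeras, so 0 at these depths does not show absence of binding. Angptl2 and Timp3 were at 0 because each lies within another coding gene. By span and strand, Angptl2, a secreted angiopoietin-like protein, had 12 chimeras of the pair and 75 of others, and Timp3, a metalloproteinase inhibitor, had 4 and 53. The Angptl2 site at chr2:33247567-33247635, plus strand, 124 bases before that gene's end, held 10 chimeras, 9 of them miR-221-3p; the gene around it, Ralgps1, lies on the other strand. This site was singled out after its values were seen.

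By pool, the cited list held 2, 1, 17, 13 and 18 of the pair's chimeras. In set 2 this was 1.33% (0.776 to 2.12), 1.08% (0.574 to 1.83) and 1.04% (0.619 to 1.64), against 0.412% to 0.440% among other miRNAs. In set 1 it was 0.231% (0.0280 to 0.834) and 0.413% (0.0105 to 2.28), against 0.318% and 0.412%. In set 2, Ddit4 and Bcl2l11 gave 26 of the list's 48 chimeras. Without these 2, the other 30 genes held 0.469% (0.172 to 1.02), 0.662% (0.286 to 1.30) and 0.463% (0.200 to 0.911) of the set 2 pools, intervals that included the 0.349%, 0.408% and 0.359% among other miRNAs. Angptl2 and Timp3 count as 0 in these shares because of the naming rule. By span and strand they had 12 and 4 chimeras of the pair, beside 75 and 53 of others. As counted here, the list's set 2 intervals lay above other miRNAs only with Ddit4 and Bcl2l11 in it. In set 1 the counts were too few to show a difference.

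The other lists were as uneven. Over the 17512 genes with a chimera of any miRNA, 12.8% had at least 1 of the pair and 0.834% at least 5. Of 14 apoptosis genes, from the Bcl2 family with its BH3-only members and Apaf1, 6 had a chimera and 2 had at least 5. These 2 were Bcl2l11 and the survival gene Mcl1, which had 10 (3, 1, 3, 0 and 3 by pool, 10.3 times, 4.85 to 19.4). The list held 0.463%, 0.413%, 0.704%, 0.0828% and 0.637% by pool, against 0.0987% to 0.136% among other miRNAs. The share among other miRNAs lay inside the pair's interval in both DKO pools. Among CDK inhibitors and G1 genes 5 of 22 had a chimera and 0 had 5, with 11 chimeras in all (0% to 0.331% by pool, against 0.234% to 0.288% among other miRNAs). In the TNRC6, Argonaute and miRNA processing list it was 7 of 12 and 0, with 14 chimeras (0.116% to 0.413%, against 0.271% to 0.355%). In the cell adhesion and matrix list 11 of 18 had a chimera and 3 at least 5, the integrin genes Itga3 (8; 3.31 times, 1.42 to 6.59) and Itgb1 (6; 1.84, 0.673 to 4.03) and the syndecan gene Sdc1 (6; 0.895, 0.328 to 1.95). This list held 0% to 0.745% by pool, against 0.460% to 0.743%. For the CDK, TNRC6 and adhesion lists the share among other miRNAs lay inside the pair's interval in each pool.

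A few genes stood in 1 pool or nearly so. Ece1, the endothelin-converting enzyme, had 14 chimeras in 58 reads, all miR-222-3p in the set 1 control, at chr4:137963834-137963892 on the plus strand, where other miRNAs had 0. Without this site the miR-222-3p share of that pool was 0.321% in place of 0.357%. Of the 7 chimeras at the stacked site of Entpd7, a nucleotidase, and the 7 at that of Vgll4, a cofactor of TEAD transcription factors, 6 each came from the set 1 DKO pool and 1 from the set 1 control, all of them miR-221-3p. The 5 at the stacked site of Trp53inp1, a gene induced by p53, were all miR-222-3p from the set 1 DKO pool. These sites rest on few barcodes: 2 over the 7 reads at Entpd7, 4 over 8 reads at Vgll4 and 2 over 6 reads at Trp53inp1, against 38 over 58 reads at Ece1 and 14 over 26 reads at Arl4c. Copies of 1 molecule with shifted ends would count as separate chimeras, so the number of molecules behind them may be smaller, which was not tested. By contrast, Glud1, glutamate dehydrogenase, had 7 chimeras in 4 pools, all miR-221-3p and with 0 of other miRNAs at the site. Kdm5b, a histone demethylase, had 6 over 3 pools.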

How the data were processed

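The deposited files give, in a unit other than a count or signal, the mm10 start and end of each chimeric read's target part, with strand, a 4-base barcode and the miRNA name, pooled by group by the authors. The tools were Novoalign, bedtools and cutadapt, on mm10, per the submitters' processing notes; versions are not given in the sources used here. Lines sharing position, strand, miRNA and barcode numbered 0; copies with shifted ends were not looked for. Set 1 reads with marked names (8.53% of control, 4.46% of DKO) were kept.

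Shares and ratios of miRNAs used reads; genes and sites used distinct chimeras. Intervals are Clopper-Pearson for shares and conditional exact for ratios (95%), computed with Python 3.11.15 and scipy 1.17.1. A difference was called at 1.5-fold, with at least 50 reads (miRNA) or 20 chimeras (gene) over both pools. Targets were named by their midpoint within a RefSeq gene span; those in several coding genes were counted and not named. Distances to a gene's end follow the strand of the target part. Overlap by 1 base joined targets into sites.

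Named genes were the 20 with the highest mean share over pools, cited targets with at least 5 chimeras, the 3 leading members of each other list with at least 5, and genes past 1.5-fold. Named sites were the 15 deepest and the most one-sided; other named sites, Angptl2 among them, were chosen after their values were seen. The 6 gene lists and 6 marker lists (basal and differentiated keratinocyte, fibroblast, melanocyte, immune, endothelial) and the members were chosen with earlier results of these data known. Of these, 1 gene list, some genes and 1 site are not reported here, in the text or the plots. Scripts were tested on simulated data. A genome sequence was not used here, so seed matches in targets were not analysed here.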

Additional observations from a re-analysis of the deposited data

Results flagged for a closer look

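The DKO over control ratios of the pair lay on opposite sides of 1 in the 2 sets, and the difference between the sets was not tested, since each group is 1 pool. The joint share stood at 0.892 in set 1 and 1.44 in set 2, miR-221-3p at 0.859 and 1.47, and miR-222-3p at 0.916 and 1.41. The set 1 intervals included 1, but the joint interval lay below 1 without the 9 miRNAs (0.671 to 0.884), without the miR-200 family (0.752 to 0.992) and without marked names (0.748 to 0.989). Without the Ece1 site miR-222-3p stood at 1.02 (0.847 to 1.22) in set 1, with an interval that included 1. That alternative took out a site of the control alone and kept the Trp53inp1 site, with 6 reads in the DKO pool alone. It therefore does not settle on which side of 1 this ratio lies. The set 1 control is a K14-Cre line and the set 2 control the uninduced line, and set, sequencing run and control line cannot be told apart.

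For 2 target genes the ratio of their share of the pair's chimeras was also on opposite sides of 1, again not tested. Dusp1 stood at 1.53 in set 1 and 0.887 in set 2, and Scd2 at 0.376 and 2.60. Of these 4 intervals, that of Scd2 in set 2 (1.25 to 5.81) excluded 1.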

How the results depend on the processing

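Of 284 values under alternatives 228 stayed within their interval or 1.5 times and 56 moved. The miRNA ratio past 1.5-fold, that of miR-221-3p in the induced over the DKO pool (0.648), kept its direction. A change of direction was looked for only in ratios past 1.5-fold, and gene ratios were not put through the alternatives. Near 1, the set 1 DKO ratio of miR-222-3p went from 0.916 to 1.02 without the Ece1 site, and the joint induced over uninduced ratio from 0.993 to 1.01 with distinct chimeras and 1.02 without the miR-200 family. With each distinct chimera counted once, the joint shares were 0.735%, 0.640%, 0.494% and 0.499% (set 1 control and DKO, uninduced, induced), those of miR-222-3p 0.408%, 0.388%, 0.252% and 0.271%, those of miR-221-3p 0.328%, 0.242% and 0.228% (set 1 control, uninduced, induced), and the joint ratio of induced over DKO 0.750. Without marked read names the set 1 control joint share was 0.652%. Without the 9 miRNAs the set 1 control and DKO held 0.977% and 0.753% jointly (0.406% and 0.301% for miR-221-3p, 0.571% and 0.452% for miR-222-3p; joint ratio 0.771). Without the miR-200 family the joint shares were 0.476% uninduced and 0.485% induced (0.221% and 0.264% for miR-221-3p and miR-222-3p induced), and induced over DKO was 0.756. Without the most abundant miRNA the joint shares were 0.697%, 0.622%, 0.499%, 0.695% and 0.497% in the 5 pools; miR-221-3p held 0.289%, 0.238%, 0.338% and 0.227%, and miR-222-3p 0.407%, 0.261%, 0.357% and 0.270%, each in all but the set 1 DKO pool. Without the Ece1 site, an alternative added after the data were seen, miR-222-3p held 0.321% of the set 1 control.

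Counting every read raised the share of the 10 leading genes to 21.3%, 15.4%, 13.7% and 11.6% in all but the set 1 DKO pool. With genes taken only on a known strand it fell to 10.6%, 8.52%, 6.29% and 5.39%, in part because Scd2 has no strand in the table. With at least 5 chimeras 10, 5, 15, 8 and 31 genes remained, and with at least 10 a site 25 sites. The cause of the other moves was not tested. No paired analysis was possible because each group's libraries are pooled and the lists carry no replicate number; for the same reason no library could be left out. The planned seed matches, with wider target parts and with a 6-base match, were not run for want of a genome sequence. Depth limits most genes, which have 1 or 2 chimeras.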

Other observations

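Some stacked sites outside the fixed rule for named genes were chosen after their values were seen. Smim10l1 had 12 chimeras at chr6:133107566-133107609 on the plus strand, in all 5 pools, each of miR-222-3p and with 0 of other miRNAs. Gsk3b, a kinase of Wnt and insulin signalling, had 9 at chr16:38243354-38243410, with 4 of miR-221-3p and 5 of miR-222-3p, where other miRNAs had 2. The growth factor gene Nrg1 had 11, of which 9 came from the induced pool, and Zbtb34 had 12, of which 9 came from that pool. Krt5, a keratin of basal keratinocytes, had 7 at chr15:101707161-101707210 on the minus strand, 116 bases before the gene's end, each of miR-222-3p, beside 39 of other miRNAs. Several sites of 5 to 9 chimeras carried miR-221-3p alone, among them Ptbp3 (9), Kat6a (7), Wls (6) and Ehf (5).

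At some deep sites the pair was a small part of all chimeras. The mitochondrial site at chrM:498-790 had 64 chimeras of the pair beside 13612 of other miRNAs (0.468%, close to the 0.565% over all sites). A site outside genes at chr16:17222387-17222424 had 12 beside 1589, and Cdk8, a kinase of the Mediator complex, had 8 beside 312 at its deepest site. A site in Rn18s-rs5 at chr17:39846347-39846393 differed, with 16 chimeras, each of miR-222-3p, beside 41 of other miRNAs (28.1%, 17.0 to 41.5).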
